A study of Mus musculus with 6 samples.

Results

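The genes described here encode 17 enzyme subunits of pyruvate dehydrogenase and the TCA cycle, 17 proteins of mitochondrial fatty acid oxidation, and 2 transcription regulators, Ppara and Ppargc1a. They were taken by symbol from a table of 18988 rows, in which all 36 were found, and all 36 passed the filter on low values. RNA came from the stomach corpus of 6 C57BL/6 mice, 1 mouse per library. The 3 controls carried Ras;APC FF (replicates 1 to 3), and the other 3 mice carried PGC;Ras;APC FF (replicates 4 to 6), so that Ras;APC FF was common to both groups. In what follows the 2 groups are the controls and the PGC libraries. What PGC and FF stand for is not in the labels, which give no age, sex, induction or time point. The series' title names gastric cancer induced in the corpus by successive oncogenic activation, and the comparison asks what differs once PGC is added.

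Pyruvate dehydrogenase turns pyruvate into acetyl-CoA inside mitochondria, and the TCA cycle oxidises acetyl-CoA while reducing NAD and FAD. Fatty acids reach the same matrix through the carnitine shuttle and are shortened by repeated rounds of dehydrogenation, hydration, dehydrogenation and thiolysis, which also yield acetyl-CoA. In the corpus, parietal cells, which secrete acid, are among the cells richest in mitochondria of the body.

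On the deposited scale, FPKM, in which fragments are divided by a gene's length and by the library's total, no gene of the module was called in either direction. None of the 36 passed limma's threshold (adjusted p of 0.05, Benjamini-Hochberg over 11857 tested genes), and none had an unadjusted p under 0.05. Of all tested genes, 0.11% passed as higher and 0.0422% as lower, while 31.8% were higher and 3.63% lower at an unadjusted p under 0.05. The median log2 change was -0.07 for the TCA members and -0.03 for the fatty acid oxidation members, against 0.26 for all tested genes, and 34 of the 36 members lay under that all-gene median. The unadjusted 95% limma interval of every member lay between -1 and 1 on the log2(FPKM + 1) scale. Smaller differences in either direction lie inside these intervals, which hold for the deposited scaling only. The other scalings, given below, moved the log2 change of every member down, and no intervals are given for them.

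The libraries differed in composition. Summed FPKM lay between 664821 and 804774, and 11465 to 12407 genes reached 1 FPKM. The 3 most abundant genes, Pgc (pepsinogen C), Clps (colipase) and Tff1 (a trefoil peptide), took 38.0% to 43.5% of the summed FPKM in the controls, 31.4% and 31.0% in replicates 4 and 5, and 14.3% in replicate 6. Across genes, the log2 values of replicate 6 correlated with those of controls at r = 0.904 to 0.909, and those of replicates 4 and 5 at 0.965 to 0.981. Control replicate 3 had 0 FPKM of Xist and 13.15 of the Y-linked gene Eif2s3y, the reverse of the other 5 libraries, so 1 control read as male. Without it, 0 members passed, and 16 had a positive and 20 a negative log2 change, against 11 and 25 with it. Over all tested genes, 80.8% were positive without it and 80.6% with it. Whether reads were counted by strand is not stated, and in GENCODE M21 exons of 8 members share bases with another protein-coding gene. The overlap is widest for Acadvl (1151 of 2686 exon bases, with Dvl2 on the opposite strand) and Etfb (617 of 1164, with Gm45233 on the same strand), whose levels are less certain. In bulk tissue, fewer cells of a type and less RNA per cell cannot be told apart.

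**Figure D1:**
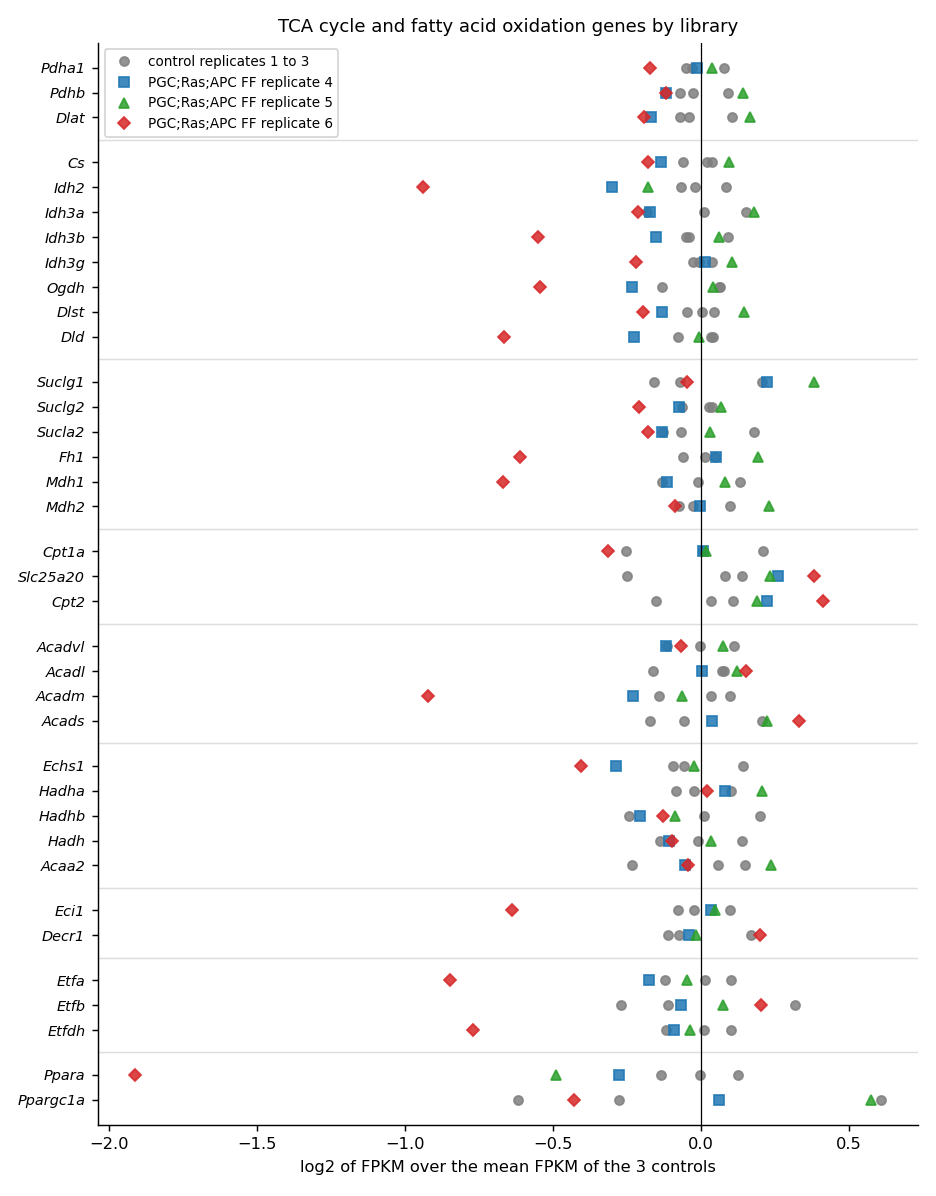
Each point is 1 library's FPKM over the mean of the 3 controls, on a log2 axis, for the 36 genes in order of pathway role (grey circles, controls; blue squares, green triangles and red diamonds, PGC replicates 4, 5 and 6). Replicate 6 was the lowest of the 6 libraries for 22 genes, and Cpt2 and Slc25a20 had all 3 PGC libraries above all controls. The share of all tested genes that were lowest in replicate 6 was not computed.

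Pyruvate dehydrogenase subunits overlapped between the groups. Pdha1, the catalytic alpha subunit and the most abundant of the 3, was at 78.9, 86.2 and 80.0 FPKM in control replicates 1 to 3 and at 80.9, 83.8 and 72.6 in PGC replicates 4 to 6. The log2 change was -0.05 ± 0.13 (SE), with a limma adjusted p of 0.792. Dlat, the acetyltransferase core, was at 19.6, 19.3 and 21.8 FPKM in the controls and at 18.0, 22.7 and 17.7 in the PGC libraries. Replicate 5 was above every control for Dlat and Pdhb, while replicates 4 and 6 were below every control. Pdhb, the beta subunit, had means of 60.1 ± 3.53 and 59.0 ± 6.30 FPKM (SD, n = 3 each).

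From citrate to succinyl-CoA, all 8 members had a negative log2 change (-0.47 to -0.03), and Idh2 was the 1 member of the cycle whose groups did not overlap. Cs, citrate synthase, which joins acetyl-CoA to oxaloacetate, was at 166.6, 176.4 and 178.4 FPKM in the controls and at 158.3, 185.6 and 153.4 in the PGC libraries. Its log2 change of -0.07 had a 95% interval of -0.41 to 0.27. Idh2, the mitochondrial NADP-dependent isocitrate dehydrogenase (chromosome 7, 80094846 to 80115392, minus strand, GRCm38), was at 122.0, 118.0 and 131.2 FPKM in the controls and at 100.4, 109.4 and 64.6 in the PGC libraries. Every PGC library was thus under every control, with replicate 6 the lowest at 0.522 of the control mean. The log2 change was -0.47 ± 0.21 (SE), which missed the threshold (limma adjusted p = 0.152), and was -0.24 without replicate 6.

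The NAD-dependent isocitrate dehydrogenase, built from Idh3a, Idh3b and Idh3g, overlapped between groups in each subunit. Idh3a, its catalytic subunit, was at 46.6, 40.8 and 51.4 FPKM in the controls and at 41.1, 52.4 and 40.0 in the PGC libraries. Replicate 5 had the highest Idh3a value of the 6 libraries and replicate 6 the lowest. Idh3b ranged from 117.4 to 129.4 FPKM in the controls and from 83.1 to 126.7 in the PGC libraries, and Idh3g had means of 94.1 ± 2.15 and 92.3 ± 10.4 (SD, n = 3 each). The oxoglutarate dehydrogenase complex consists of Ogdh, its first enzyme, Dlst, the succinyltransferase core, and Dld, the dihydrolipoamide dehydrogenase that it shares with pyruvate dehydrogenase. In replicate 6 these stood at 0.685, 0.873 and 0.630 of their control means. Over replicates 4 and 5 they stood at 0.939, 1.01 and 0.925.

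From succinyl-CoA to oxaloacetate, the groups overlapped in all 6 members. Suclg2 and Sucla2, the GTP- and ATP-forming beta subunits of succinyl-CoA ligase, are the alternatives of that step. Suclg2 was at 36.4, 39.0 and 38.8 FPKM in the controls and at 36.1, 39.8 and 32.9 in the PGC libraries, and Sucla2 at 33.1, 34.5 and 40.9 against 33.0, 36.9 and 31.9. Suclg1, their shared alpha subunit, had the largest positive log2 change of the cycle (0.19 ± 0.17 SE, limma adjusted p = 0.409, and 0.31 without replicate 6). Mdh2, mitochondrial malate dehydrogenase and the most abundant member, was at 257.9, 266.2 and 290.2 FPKM in the controls and at 271.0, 318.2 and 255.6 in the PGC libraries. Mdh1, the cytosolic enzyme of the malate-aspartate shuttle, was at 186.8, 171.6 and 205.7 FPKM in the controls and at 173.5, 198.9 and 118.3 in the PGC libraries. For Mdh1, replicates 4 and 5 lay among the controls and replicate 6 under them. Fumarase, Fh1, was at 83.0 and 91.7 FPKM in replicates 4 and 5, above the 76.9 to 82.9 of the controls, and at 52.6 in replicate 6.

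**Figure D2:**
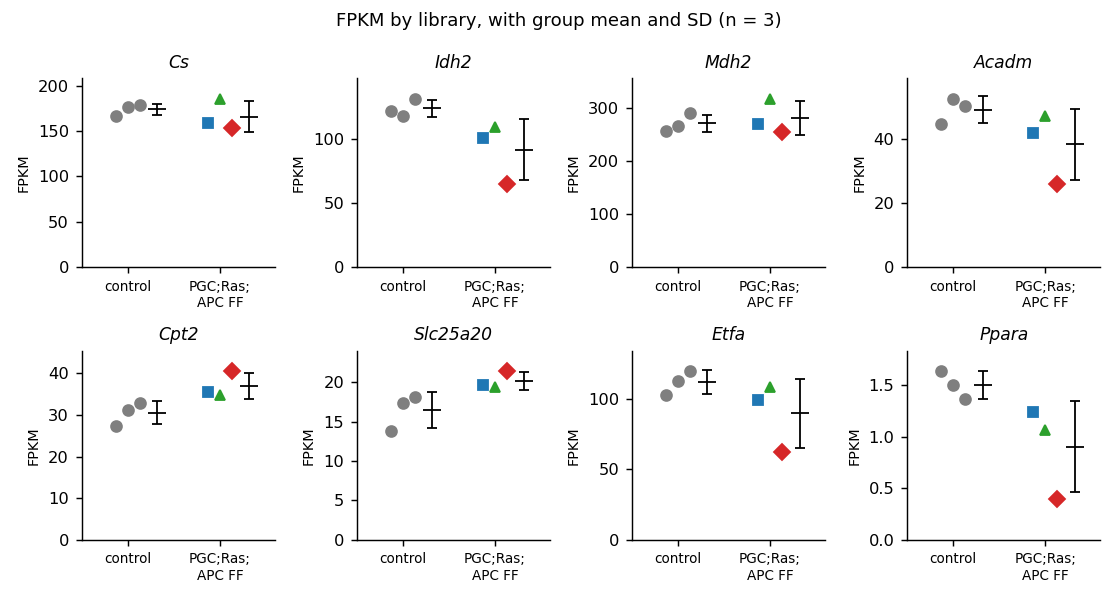
FPKM in every library for 8 members, with the group mean and SD (bars, n = 3) to the right of the points and axes from 0 (grey circles, controls; blue square, green triangle and red diamond, replicates 4, 5 and 6). Cs and Mdh2 overlap between groups, Idh2 and Ppara lie lower in all 3 PGC libraries, Cpt2 and Slc25a20 lie higher in all 3, and replicate 6 is lowest for Acadm and Etfa.

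In the carnitine shuttle, Slc25a20 and Cpt2 had positive log2 changes near the all-gene median of 0.26, and Cpt1a had a negative one (-0.08). Cpt1a, the outer membrane acyltransferase that controls entry, was at 32.5, 44.9 and 39.0 FPKM in the controls and at 39.0, 39.2 and 31.2 in the PGC libraries. Slc25a20, the carnitine-acylcarnitine carrier of the inner membrane (chromosome 9, 108662088 to 108684641, plus strand), was at 13.9, 17.4 and 18.1 FPKM in the controls and at 19.7, 19.3 and 21.4 in the PGC libraries. Cpt2, the acyltransferase on the matrix side (chromosome 4, 107903981 to 107923610, minus strand), was at 27.5, 31.2 and 32.9 FPKM in the controls and at 35.6, 34.8 and 40.6 in the PGC libraries. For both Slc25a20 and Cpt2 the groups did not overlap, and replicate 6 was highest. Their log2 changes were 0.28 ± 0.14 and 0.27 ± 0.13 (SE), with limma adjusted p of 0.179 and 0.178, and 0.24 and 0.20 without replicate 6. No other member had non-overlapping groups on the higher side, so the count was 2 of 36, where 42.7% of all tested genes did so. On the lower side it was also 2 of 36, Idh2 and Ppara, against 5.47% of all tested genes, a share near that background.

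The stretches upstream of Slc25a20 and Cpt2 are shown because these were the 2 members with every PGC library above every control. RefSeq promoter windows of 300 bases, 250 before to 50 after the start (GRCm38.p6), were matched for 33 of the 36 members by symbol, with 38 windows. The lines below run 5′ to 3′ on the gene's strand from base 250 to base 51 before the start, in lower case with CCGGAAGT, the core that ETS factors such as GABPA bind, in capitals.
Slc25a20, chr9:108661886-108662085, plus strand: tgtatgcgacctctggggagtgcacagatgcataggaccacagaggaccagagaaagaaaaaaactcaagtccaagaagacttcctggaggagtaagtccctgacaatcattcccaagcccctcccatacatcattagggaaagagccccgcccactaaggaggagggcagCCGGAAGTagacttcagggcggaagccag
Cpt2, chr4:107923640-107923839, minus strand: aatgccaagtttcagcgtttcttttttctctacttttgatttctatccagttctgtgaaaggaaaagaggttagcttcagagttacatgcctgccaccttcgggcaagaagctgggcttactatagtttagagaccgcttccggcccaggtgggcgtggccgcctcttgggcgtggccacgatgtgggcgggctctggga

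CCGGAAGT was searched after these sequences had been seen, on both strands, and was found in the windows of 3 members against 3.89% of 32851 promoter windows of the same length. In Slc25a20 it begins 79 bases before the start, as shown above. The Cpt2 site begins 13 bases before the RefSeq start, inside the gene as GENCODE draws it, and the Dlst site, on the opposite strand, begins at the start. Both are given here with their context to 30 bases.
Cpt2, chr4:107923584-107923613, minus strand: cctatcggtgcCCGGAAGTgcccctgtggg
Dlst, chr12:85110822-85110851, plus strand: cggccggtctcACTTCCGGttgctgccggg

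For regulators of this module, the element of PPAR receptors (AGGTCA, any 1 base, AGGTCA) and that of estrogen-related receptors (TCAAGGTCA) were searched on both strands. They were in 0 member windows, and in 0.0396% and 0.423% of all windows. The element of NRF1 (GCGCA followed directly by its reverse complement), a factor that drives many mitochondrial genes, was in 2 member windows, those of Etfdh and Ppara, and in 0.971% of all windows. These 2 matches are shown with the element in capitals, and the stretch shown for Etfdh lies within a GENCODE exon.
Etfdh, chr3:79628876-79628905, minus strand: tgcttctaggGCGCATGCGCacacgcgaga
Ppara, chr15:85735735-85735764, plus strand: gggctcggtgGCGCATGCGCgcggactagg
The NRF1 and ETS elements contain CpG (C followed by G). In the 250 bases before the start, member windows held a median of 15 CpG, against 6 over all windows. The all-window shares given here are not matched for this. A match of letters describes the window only and shows no binding.

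The acyl-CoA dehydrogenases, which start each round of oxidation on chains of a given length, showed no common direction. Acadl, the long-chain enzyme and the most abundant, was at 73.0, 85.8 and 86.1 FPKM in the controls and at 81.8, 88.7 and 90.7 in the PGC libraries. Acadm, the medium-chain enzyme, was at 44.6, 52.6 and 50.3 FPKM in the controls and at 42.0, 47.0 and 26.0 in the PGC libraries. Replicate 6 was at 0.528 of the control mean for Acadm but at 1.26 for the short-chain enzyme Acads, which made these the extremes of the family. Acads had means of 31.3 ± 4.28 and 35.9 ± 3.66 FPKM and Acadvl, the very-long-chain enzyme, of 45.5 ± 3.57 and 44.5 ± 3.11 (SD, n = 3 each). The log2 changes of Acadm and Acads were -0.39 ± 0.22 and 0.20 ± 0.15 (SE), with limma adjusted p of 0.227 and 0.339. Without replicate 6 they were -0.14 and 0.13.

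The later steps overlapped between groups throughout. Hadha and Hadhb form the trifunctional protein on the inner membrane, and their genes lie head to head on chromosome 5 with 85 bases between them. Hadha was at 65.8, 74.8 and 68.5 FPKM in the controls and at 73.7, 80.3 and 70.7 in the PGC libraries, and Hadhb at 78.4, 93.3 and 106.4 against 80.3, 87.1 and 84.9. Hadh, the matrix hydroxyacyl-CoA dehydrogenase, was at 82.2, 89.9 and 99.6 FPKM in the controls and at 84.1, 92.8 and 84.7 in the PGC libraries. Echs1, the short-chain enoyl-CoA hydratase, had the largest change of this step, from 88.9, 91.4 and 105.0 FPKM to 78.0, 93.4 and 71.8 (log2 change -0.23 ± 0.15 SE, limma adjusted p = 0.285, and -0.15 without replicate 6). Replicate 5 sat among the controls for Echs1, with replicates 4 and 6 under them. The thiolase gene Acaa2 had means of 78.1 ± 10.5 and 81.0 ± 9.54 FPKM (SD, n = 3 each).

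Of the auxiliary enzymes for unsaturated fatty acids, Eci1, an enoyl-CoA isomerase, was at 63.4, 65.8 and 71.7 FPKM in the controls and at 68.4, 69.2 and 43.0 in the PGC libraries. Decr1, dienoyl-CoA reductase, the least abundant enzyme, had means of 13.9 ± 1.51 and 14.4 ± 1.36 FPKM (SD, n = 3 each). Replicate 6 lay under all controls for Eci1, and at 15.96 FPKM above all of them for Decr1.

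Electron transfer from the dehydrogenases to ubiquinone uses the flavoprotein subunits Etfa and Etfb and the oxidoreductase Etfdh. Etfa was at 102.5, 112.6 and 119.5 FPKM in the controls and at 98.7, 107.9 and 62.0 in the PGC libraries. Etfb, which forms a dimer with Etfa, was at 89.7, 100.2 and 134.7 FPKM in the controls and at 103.1, 113.8 and 124.4 in the PGC libraries. Replicate 6 was therefore the lowest library for Etfa and the second highest for Etfb. Etfdh was at 36.9, 39.3 and 33.8 FPKM in the controls and at 34.4, 35.8 and 21.5 in the PGC libraries, with replicates 4 and 5 inside the control range. The log2 changes of Etfa, Etfb and Etfdh were -0.35 ± 0.22, 0.09 ± 0.18 and -0.29 ± 0.20 (SE), with limma adjusted p of 0.263, 0.727 and 0.313. Without replicate 6 they were -0.11, 0.02 and -0.06.

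Both regulators were read at low levels. Ppara, a nuclear receptor that activates fatty acid oxidation genes (chromosome 15, 85734983 to 85802819, plus strand), was at 1.64, 1.5 and 1.37 FPKM in the controls and at 1.24, 1.07 and 0.40 in the PGC libraries. All 3 PGC libraries were under all controls, with replicate 6 at 0.266 of the control mean. The log2 change on the log2(FPKM + 1) scale was -0.42 ± 0.19 (SE), with a limma adjusted p of 0.152, and -0.22 without replicate 6. Ppargc1a, a coactivator of mitochondrial biogenesis, was at 1.9, 1.5 and 3.51 FPKM in the controls and at 2.40, 3.43 and 1.71 in the PGC libraries. Its groups overlapped, and its control SD of 1.06 FPKM around a mean of 2.30 was wide.

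Replicates 4 and 5 stayed nearer to the controls than replicate 6. Over replicates 4 and 5, the enzymes stood between 0.848 (Idh2) and 1.23 (Suclg1) of their control means. In replicate 6, 11 of the 36 members were under 0.7 of the control mean, 6 were over 1.1 and 19 lay between. The 11 were Idh2, Idh3b, Ogdh, Dld, Fh1, Mdh1, Acadm, Eci1, Etfa, Etfdh and Ppara, and the 6 were Slc25a20, Cpt2, Acadl, Acads, Decr1 and Etfb. Among the 3 PGC libraries, replicate 5 was the highest for 29 members. For these counts the matching shares of all tested genes were not computed. The bounds of 0.7 and 1.1 are not symmetric on a log2 scale. The mean log2(FPKM + 1) of all tested genes lay 0.20, 0.16 and 0.47 above its control mean in replicates 4, 5 and 6. With replicate 6 left out, 0 members passed in either direction, where 8.11% of all tested genes were called higher and 0.961% lower, and the median log2 changes were 0.00031 (TCA) and 0.02 (fatty acid oxidation).

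The direction of the whole module depended on how libraries were scaled. As deposited, the all-gene median log2 change was 0.26, and it was -0.0071 after median-of-ratios scaling, which sets the typical gene equal between libraries. On that scale all 36 members had a negative log2 change, with medians of -0.38 for the TCA members and -0.34 for fatty acid oxidation, and quantile normalization and a total without the 50 most abundant rows also placed all 36 below 0. After median-of-ratios scaling, the PGC libraries lay under all controls for 21 of 36 members, against 17.5% of all tested genes, and above them for 0, against 17.6%. The 21 comprised 11 of 17 TCA members, 9 of 17 fatty acid oxidation members and Ppara. By step they took in 7 of 8 from citrate to succinyl-CoA and 0 of 3 of the carnitine shuttle, where Slc25a20 and Cpt2 had log2 changes of -0.01 and -0.04. Still, 0 members passed the adjusted threshold under any scaling run. The lowest limma adjusted p of a member was 0.147 with median-of-ratios factors, 0.112 with quantile normalization and 0.128 without the 50 most abundant rows. With median-of-ratios scaling and replicate 6 left out, a setting chosen after seeing the data, 32 of 36 members were negative and the median over all 36 was -0.20.

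**Figure D3:**
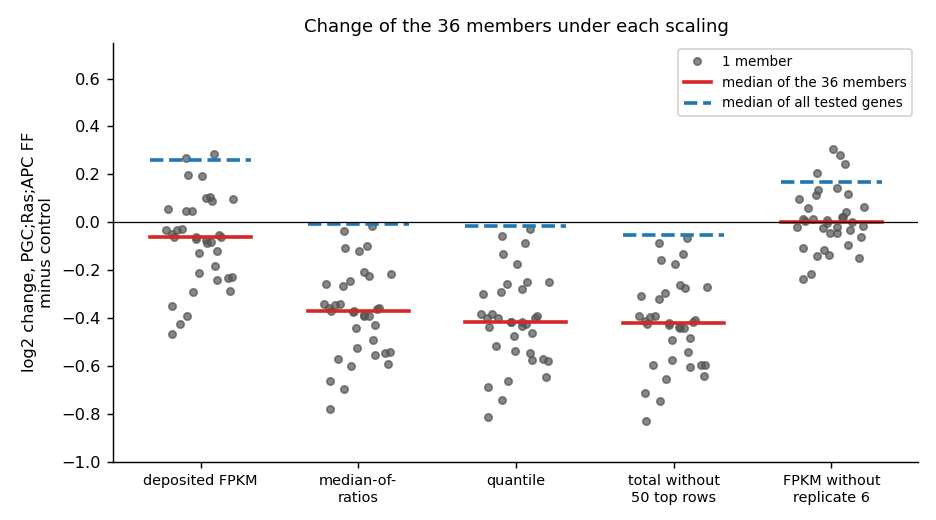
Each grey point is the log2 change (PGC minus control) of 1 of the 36 members under a scaling, with the median of the members (red) and of all tested genes (blue, dashed). The members' median is -0.06 against 0.26 for all genes on the FPKM scale and -0.37 against -0.0071 after median-of-ratios scaling, and without replicate 6 it is 0.0030 against 0.17.

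Ratios of 2 members within a library do not depend on a scaling factor for that library. The FPKM ratio of Idh2 to Idh3a was 2.62, 2.89 and 2.55 in the controls and 2.44, 2.09 and 1.62 in the PGC libraries. Mdh1 to Mdh2, cytosolic to mitochondrial, was 0.724, 0.645 and 0.709 in the controls and 0.640, 0.625 and 0.463 in the PGC libraries. Cpt1a to Cpt2 was 1.18, 1.44 and 1.19 in the controls and 1.095, 1.13 and 0.769 in the PGC libraries. In these 3 ratios every PGC library was under every control, by a narrow margin between replicates 2 and 4 for Mdh1 to Mdh2.

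The mean log2 differences were -0.41, -0.28 and -0.36 for these ratios in turn, each with an exact permutation p of 0.1 (two-sided, the smallest that 3 against 3 can give) and an adjusted p of 0.2 over the 6 ratios computed. Without replicate 6 they were -0.25, -0.13 and -0.19. Etfa to Etfb was 1.14, 1.123 and 0.887 in the controls and 0.957, 0.948 and 0.498 in the PGC libraries (exact permutation p = 0.3, adjusted 0.36). Without replicate 6 its mean log2 difference went from -0.44 to -0.13. Hadha to Hadhb differed by 0.23 (exact permutation p = 0.2, adjusted 0.3) and Sucla2 to Suclg2 by -0.02 (exact permutation p = 1, adjusted 1), and both overlapped between groups.

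**Figure D4:**
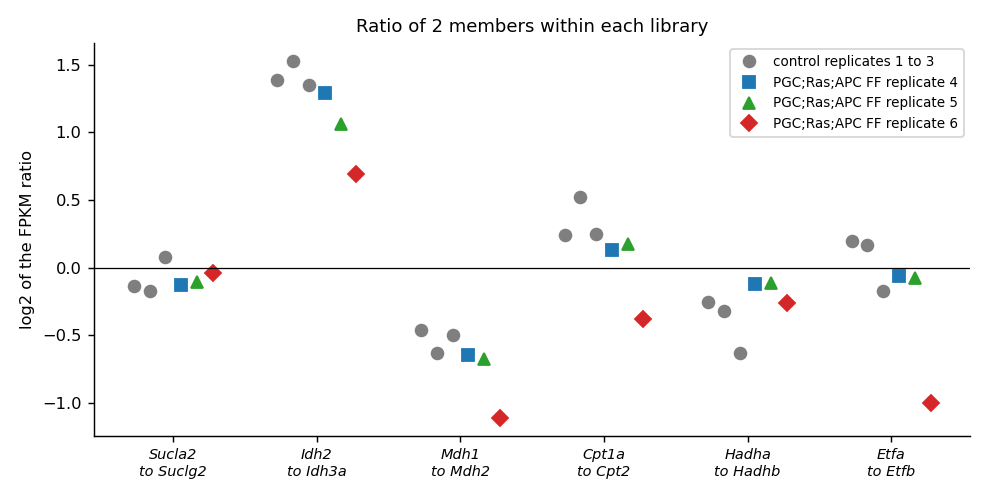
The log2 ratio of FPKM between 2 members in each library, for 6 pairs (grey circles, controls; blue squares, green triangles and red diamonds, replicates 4, 5 and 6). Idh2 to Idh3a, Mdh1 to Mdh2 and Cpt1a to Cpt2 are lower in all 3 PGC libraries, and replicate 6 is lowest in each.

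Other genes of these pathways were followed in lists, and 0 genes of any of these lists passed the adjusted threshold with all 6 libraries. Of 28 tested further TCA and pyruvate entry genes, 12 had a positive and 16 a negative log2 change (median -0.05). Over all tested genes 80.6% were positive (median 0.26). The groups did not overlap for 5 of the 28 on the higher and 2 on the lower side, against 42.7% and 5.47% of all tested genes. Idh1, the cytosolic NADP-dependent isocitrate dehydrogenase, was at 33.0 ± 4.99 FPKM in the controls and at 65.1 ± 34.9 in the PGC libraries (48.8, 41.3 and 105.1 in replicates 4 to 6). Slc25a1, which exports citrate from mitochondria, was at 69.5 ± 10.9 and 121.9 ± 31.5 FPKM, and Me3, a mitochondrial malic enzyme, at 4.85 ± 0.282 and 3.16 ± 1.37 (SD, n = 3 each). Idh1 and Slc25a1 thus stood on the opposite side from Idh2, with log2 changes of 0.85 ± 0.33 and 0.78 ± 0.21 (SE) and limma adjusted p of 0.119 and 0.085. Without replicate 6 these log2 changes were 0.44 and 0.58.

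Of 30 tested further genes of mitochondrial fatty acid oxidation and uptake, 13 had a positive and 17 a negative log2 change (median -0.04). Over all tested genes 80.6% were positive. The groups did not overlap for 5 of the 30 on the higher and 7 on the lower side, against the same 42.7% and 5.47%. Fabp3, a fatty acid binding protein, was at 232.3, 224.7 and 326.9 FPKM in the controls and at 195.0, 216.8 and 45.1 in the PGC libraries. Cd36, a fatty acid transporter, was at 33.9 ± 2.39 and 18.6 ± 10.6 FPKM, and Acadsb, an acyl-CoA dehydrogenase of branched chains, at 60.3 ± 4.15 and 36.7 ± 16.1 (SD, n = 3 each). In replicate 6 these 3 were at 0.173, 0.188 and 0.305 of their control means. Without replicate 6, Cd36 (log2 change -0.43, limma adjusted p = 0.0494) and Acsl6, an acyl-CoA synthetase (-0.49, limma adjusted p = 0.0472), fell. These were the only 2 of the 30 called, where 0.961% of all tested genes were called lower and 8.11% higher. Acsl6 was read at low levels (means of 1.18 and 0.457 FPKM). The synthetase genes did not share a direction. With all 6 libraries, Acsl3, Acsl4 and Acsl5 had every PGC library above every control (log2 changes 0.61, 0.81 and 0.46), and Acsl1 every one below (-0.70). Of 17 tested peroxisomal genes, 11 were positive (median 0.14), against 80.6% of all tested genes (median 0.26). Phyh, which starts the oxidation of phytanic acid, was at 470 ± 87.6 and 307 ± 110.0 FPKM, while Hsd17b4 and Crot, of peroxisomal beta-oxidation and the export of its products, were at 30.8 ± 3.18 and 14.4 ± 1.57 FPKM in the controls and 40.2 ± 3.14 and 17.6 ± 1.94 in the PGC libraries.

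Among 6 tested ketone body genes the median was 0.09. Oxct1, which activates ketone bodies for oxidation, was at 204.1, 212.5 and 211.2 FPKM in the controls and at 142.8, 175.2 and 51.2 in the PGC libraries, so that all 3 lay under the controls (log2 change -0.94 ± 0.41 SE, limma adjusted p = 0.145, and -0.40 without replicate 6). Slc16a1, a monocarboxylate transporter, was at 15.8 ± 1.11 and 21.8 ± 3.04 FPKM. Of 18 tested further regulators, 12 were positive (median 0.11), against 80.6% of all tested genes (median 0.26). The estrogen-related receptor genes Esrrg and Esrrb had means of 29.95 and 3.503 FPKM in the controls and of 17.2 and 1.66 in the PGC libraries, and Klf15 was at 14.6 ± 0.946 and 8.90 ± 3.37. All 3 had non-overlapping groups on the lower side, and Esrrb fell when replicate 6 was left out (log2 change -0.51, limma adjusted p = 0.0486). It was the 1 gene of the 18 called there, where 0.961% of all tested genes were called lower and 8.11% higher. In this list the groups did not overlap for 5 genes on the higher and 4 on the lower side. Over all tested genes these shares were 42.7% and 5.47%. Among the 5, Pparg and Ppard were at 28.6 ± 5.28 and 23.7 ± 0.806 FPKM in the controls and 41.9 ± 3.27 and 32.8 ± 7.86 in the PGC libraries. Of 10 tested PPAR targets outside oxidation, 5 were positive and 5 negative (median -0.01), against the same 80.6% positive of all tested genes. Plin2, which coats lipid droplets, was at 6.42, 7.63 and 6.45 FPKM in the controls and at 13.8, 9.91 and 28.9 in the PGC libraries. Plin2 rose when replicate 6 was left out (log2 change 0.70, limma adjusted p = 0.0397), the 1 gene of the 10 called there, against 8.11% of all tested genes called higher. Plin4 was at 3.65 ± 0.861 and 1.75 ± 0.845 FPKM, and Txnip at 181.7 ± 31.6 and 230.5 ± 15.8 (SD, n = 3 each).

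Other mitochondrial genes were set beside the module as levels, the mean log2(FPKM + 1) of a list's tested genes minus its control mean. The TCA members were at -0.10, 0.10 and -0.33 in replicates 4, 5 and 6, and the fatty acid oxidation members at -0.04, 0.07 and -0.14, around control SDs of 0.071 and 0.13. Subunits of oxidative phosphorylation were at -0.10, 0.12 and -0.23 (29 genes, median log2 change -0.05, groups overlapping for all 29). Genes of the outer membrane and protein import were at 0.17, 0.27 and 0.44 (19 genes, median 0.33), and 12 of the 19 had non-overlapping groups on the higher side, against 42.7% of all tested genes, whose median was 0.26. Their leading genes were the chaperones Hspe1 and Hspd1, at 49.6 ± 8.42 and 58.3 ± 1.67 FPKM in the controls and 77.4 ± 16.2 and 85.5 ± 12.0 in the PGC libraries, and Phb2, a prohibitin, at 81.6 ± 1.97 and 119.0 ± 16.1 (SD, n = 3 each). Without replicate 6, Hspd1 was the 1 gene of the 19 called (log2 change 0.43, limma adjusted p = 0.0499), against 8.11% of all tested genes called higher. The TCA level minus the import level, taken within a library, was -0.26, -0.17 and -0.77 in replicates 4 to 6 and between -0.055 and 0.049 in the controls. This difference was not tested.

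**Figure D5:**
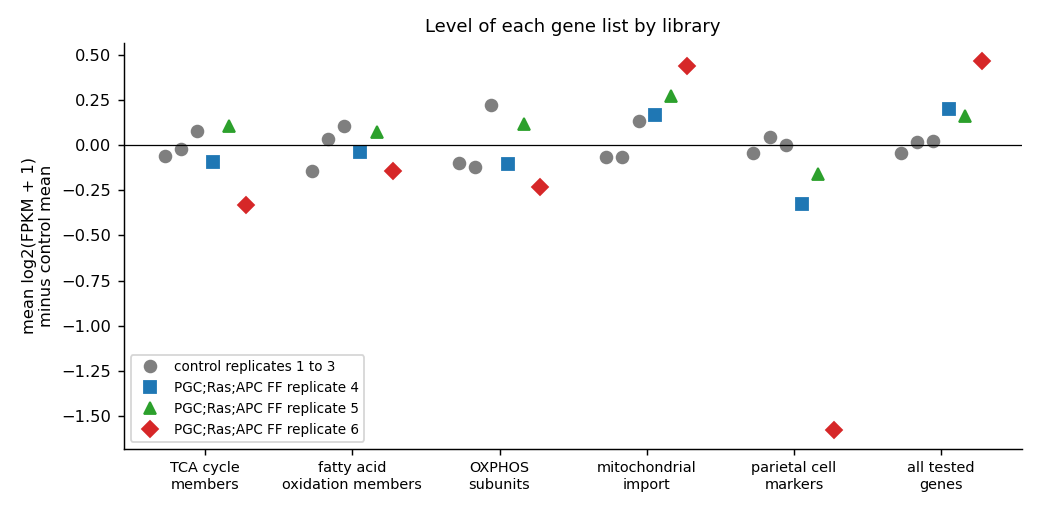
The mean log2(FPKM + 1) of each gene list minus its control mean, by library (grey circles, controls; blue squares, green triangles and red diamonds, replicates 4, 5 and 6). The TCA, fatty acid oxidation and oxidative phosphorylation (OXPHOS) lists lie no lower than -0.33 in any library, the import list is at 0.44 and the parietal cell list at -1.58 in replicate 6.

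Some marker lists of cell types stood further from the controls in replicate 6 than the module did, and others did not. All 16 tested parietal cell markers had a negative log2 change, with list levels of -0.33, -0.16 and -1.58 in replicates 4 to 6. The groups did not overlap on the lower side for 10 of the 16, against 5.47% of all tested genes. Summed FPKM over the list was 9273 to 11028 in the controls and 8906, 9953 and 2322 in the PGC libraries. Gif, which is on the chief cell list as well, is part of this list's count, levels and sums. It was at 2177, 1939 and 1271 FPKM in the controls and at 2890, 2382 and 558 in the PGC libraries. For Gif, replicates 4 and 5 thus lay above all controls, which raised their sums. A sum without Gif was not computed. Atp4b was at 4614, 4456 and 4068 FPKM in the controls and at 3131 and 3849 in replicates 4 and 5. Atp4a was at 2805, 2884 and 2353 in the controls and at 1768 and 2356 in replicates 4 and 5. The log2 change of Gif was -0.16 with all 6 libraries and 0.58 without replicate 6. In replicate 6 the proton pump genes were at 723.3 (Atp4b) and 427.7 FPKM (Atp4a), against control means of 4379 ± 281 and 2681 ± 287 (SD, n = 3), and no parietal marker in the table was at 0. The TCA level thus exceeded the parietal level by 0.23, 0.26 and 1.25 in replicates 4 to 6.

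Smooth muscle markers stood lower in each PGC library (levels of -0.92, -1.14 and -1.48, with groups not overlapping on the lower side for 11 of 11, against 5.47% of all tested genes, and summed FPKM of 2436 to 4319 in the controls and 1107 to 1613 in the PGC libraries). All 7 tested adipocyte markers had a negative log2 change, but to unlike degrees. Groups did not overlap on the lower side for 3 of the 7, against 5.47% of all tested genes. Cfd and Adipoq fell at limma's adjusted threshold, where 0.0422% of all tested genes were called lower. Cidec and Lipe had log2 changes of -0.10 and -0.19 and were at 0.949 and 0.964 of their control means in replicate 6. Lpl and Fabp4, the most abundant of the list, overlapped between groups. Summed FPKM over the list was 202.0 to 217.2 in the controls and 60.8 to 161.2 in the PGC libraries. The defining genes Adipoq and Plin1 were at 3.12 to 5.03 and 0.58 to 1.14 FPKM in the controls and both at 0 in replicate 6. All 7 mucous neck cell markers were positive, as were 80.6% of all tested genes. Their levels were 0.96, 1.35 and 2.96, with summed FPKM of 2512 to 3682 in the controls and 4678 to 15280 in the PGC libraries. Endocrine markers were at levels of -0.06, -0.08 and -1.51 in replicates 4 to 6, leukocyte markers at 0.77, 0.11 and 1.07, and markers of proliferating cells at 0.60, 0.82 and 1.26. Surface pit cell markers were at 0.13, 0.10 and -0.17 (control SD 0.33), and chief cell markers at 1.11, 0.68 and 0.01 (control SD 0.31). The chief cell level averages opposed genes. In replicate 6, Pgc, Clps, Gif and Bhlha15 were at 0.095, 0.174, 0.311 and 0.371 of their control means, and Pga5 and Cym at 1.32 and 431. Summed FPKM over the chief cell list was 237726 to 299540 in the controls and 185934, 181954 and 34837 in the PGC libraries. Hepatocyte markers, of which 4 were tested, were at 0.38, 0.20 and -0.54, and striated muscle markers, of which 3 were tested, at 0.00026, -0.02 and -0.36. Both levels average opposed genes. In replicate 6, Ckm, Acta1 and Tnni2 were at 0.235, 0.491 and 2.47 of their control means. Alb was at 4.88 there, and Apoa1, Ttr and Serpina1a were at 0.249, 0.359 and 0.159. The part of these markers in the values of the module was not tested.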

How the data were processed

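RNA of the stomach corpus was sequenced from 3 mice of each genotype, with libraries made and sequenced at BGI per the labels' protocols. The values are FPKM that the authors deposited, rounded to 2 decimals. STAR, featureCounts and mm10 are named in the submitters' processing notes, while versions, annotation and how FPKM was reached are not stated there. Reads per library are unknown, so no counting interval is given.

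Genes at 1 FPKM or more in 3 or more of the 6 libraries were tested as log2(FPKM + 1) in limma 3.58.1 (R 4.3.3, eBayes with trend, genotype as the 1 term, 4 residual degrees of freedom, 7.72 with the prior), two-sided, with Benjamini-Hochberg adjustment over all 11857 genes. On this scale the change of low genes is understated. The fit was tested on simulated data, drawn with the same spread in all 6 libraries and no shift of a library. An outlying library such as replicate 6 was thus not covered by that simulation. An exact test of 3 against 3 cannot give a p under 0.1. The members and lists were chosen with earlier results of these data known, so lists carry no test. Fits without a library kept the genes filtered over all 6. Values in every library are given for the most abundant and most changed member of each step, the members of the 6 ratios and both regulators. Of each further list, up to 3 genes are named, those whose groups did not overlap, by size of change. Of marker lists the most abundant were to be named, which was done for parietal cells, and for several lists no gene is named. Esrrb, Pparg, Ppard, the acyl-CoA synthetase genes and the single adipocyte, chief cell, hepatocyte and striated muscle markers are named in part after their values were seen. Coordinates are from GENCODE M21 (GRCm38, the assembly of mm10) and promoter sequences from RefSeq. Alternatives covered pseudocount, filter, scaling, the trend and leaving out each library.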

Additional observations from a re-analysis of the deposited data

How the results depend on the processing

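No paired analysis was possible because the groups share no replicate numbers. With 0 of 36 members past the adjusted threshold in every setting run, in both directions, no call could be lost. At an unadjusted p under 0.05, the count on the lower side went from 0 to 12 with median-of-ratios factors, 17 with quantile normalization, 19 with a total without the 50 most abundant rows, and 9 with median-of-ratios scaling and replicate 6 left out, where 12.1%, 13%, 13.7% and 10.2% of all tested genes did so. On the higher side it was 1 with no filter on low values, against 22.7% of all genes. Members with all PGC libraries under all controls went from 2 to 21, 24, 26 and 21 in the 4 scaled settings in that order, against 17.5%, 18.5%, 19.5% and 20.3% of all tested genes, and those above all controls from 2 to 0 in each, against 17.6%, 17%, 14% and 19.8%. The TCA median moved from -0.07 to -0.38, -0.42 and -0.43 under the 3 scalings, and the fatty acid oxidation median from -0.03 to -0.34, -0.38 and -0.39, and to -0.18 with median-of-ratios scaling and replicate 6 left out. Acads went from 0.20 to -0.13 after quantile normalization and -0.16 without the 50 most abundant rows. Scaling lowers every member by construction, since these settings bring the all-gene median near 0.

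Leaving out 1 library in turn gave 2 to 6 members above all controls (6 without replicate 3, 4 without replicate 4 or 6), 2 to 14 below them (14 without replicate 5, 7 without replicate 1), and 0 to 3 lower at an unadjusted p under 0.05 (3 without replicate 5, 1 without replicate 4). In these settings 44.2% to 53.3% of all tested genes lay above all controls, 6.41% to 7.84% below them, and 2.06% to 4.03% were lower at an unadjusted p under 0.05. Fewer libraries make it easier for groups not to overlap. The TCA median ran from -0.16 to 0.00031 and the fatty acid oxidation median from -0.087 to 0.023. Depth per library is unknown, which limits the low values of Ppara and Ppargc1a most.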
